A study of Mus musculus with 4 samples.

Results

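The genes described here are 32 proliferation and cell cycle genes, taken by symbol from the 26214 gene rows of the deposited count files. All 32 were found and all 32 had enough counts to be tested, with 347 to 8992 counts per library. They comprise 13 genes of the G1/S transition and DNA replication (the S phase members), 18 genes of late G2 and mitosis (the mitotic members), and Ccna2, whose product cyclin A2 acts in both phases. Each library is polyadenylated RNA of colon tumour tissue from mice given azoxymethane (AOM), a carcinogen, and dextran sulfate sodium (DSS), which injures the colonic epithelium. Gsk3b IEC+/+ and Gsk3b IEC-/- had 2 libraries each, and the label refers to Gsk3b in intestinal epithelial cells. The tumours of both groups were AOM/DSS-induced. The series asks how epithelial loss of GSK3B alters the transcriptome of these tumours. The sources used here give neither the promoter that drove deletion, nor the deleted exons, nor the age or strain of the mice. Nor do the labels state that libraries sharing a genotype came from different mice, and a p-value here covers only the spread among these 4 samples, which may be technical.

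Cell division is driven by waves of transcription. E2F factors switch on replication genes when the pocket proteins of the RB family release them at the G1/S transition, and the MuvB complex with B-MYB and FOXM1 later switches on the mitotic genes. In resting cells the DREAM complex keeps many genes of both waves off, so their mRNA levels in a tissue are widely used as a reading of how many cells are cycling. GSK3B enters this programme mainly through protein turnover, since it phosphorylates beta-catenin, MYC and cyclin E and thereby marks them for destruction, a step that mRNA levels do not measure. In the colon, dividing cells lie in the lower crypt.

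The S phase and mitotic members differ in part in their promoters, which are shown as background. Whether promoter motifs bear on the values below was not tested. Reference windows from 250 bases before to 50 bases after a transcription start (RefSeq, GRCm38.p6) were matched for 26 of the 32 members. Each window was searched on both strands for the E2F site (TTTCCCGC, TTTCGCGC, TTTGCCGC or TTTGGCGC), for the cell cycle genes homology region or CHR, which the MuvB complex binds (TTTGAA or TTCGAA), and for the CCAAT box, which NF-Y binds (CCAAT). The sequences printed are the parts before the start, 5′ to 3′ on the gene's strand, with matches in capitals. They are those of members whose start is the outermost end of the gene and whose upstream part holds an E2F site or a CHR, 250 bases long except for Cdc20 (241) and Cdk1 (224), where an annotated exon covers the bases that follow. Mcm6 (chr1:128359706-128359955, minus strand) shows the E2F type, and Mcm2 (chr6:88898781-88899030, minus strand) is an S phase member with a CHR. Cdc20 (chr4:118437353-118437593, minus strand) and Kif11 (chr19:37376132-37376381, plus strand) show the mitotic type, a CCAAT box followed by a CHR close to the start. In Ccnb2 (chr9:70421555-70421804, minus strand) 3 CCAAT boxes lie between the CHR in capitals and a CHR that begins 5 bases after the start, outside the printed part. Cdk1 (chr10:69352939-69353162, minus strand) holds all 3 elements. It has a further CHR that begins 15 bases before the start, outside the printed part.
Mcm6: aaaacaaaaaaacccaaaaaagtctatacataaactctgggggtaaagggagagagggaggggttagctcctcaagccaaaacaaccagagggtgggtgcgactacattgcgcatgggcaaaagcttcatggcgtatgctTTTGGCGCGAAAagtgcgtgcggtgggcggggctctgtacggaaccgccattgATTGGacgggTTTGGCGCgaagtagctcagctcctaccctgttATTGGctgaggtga
Mcm2: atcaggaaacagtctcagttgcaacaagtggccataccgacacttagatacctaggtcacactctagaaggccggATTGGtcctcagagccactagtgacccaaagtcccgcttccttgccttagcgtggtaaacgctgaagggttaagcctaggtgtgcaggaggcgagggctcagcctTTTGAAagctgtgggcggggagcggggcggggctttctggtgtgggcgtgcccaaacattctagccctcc
Cdc20: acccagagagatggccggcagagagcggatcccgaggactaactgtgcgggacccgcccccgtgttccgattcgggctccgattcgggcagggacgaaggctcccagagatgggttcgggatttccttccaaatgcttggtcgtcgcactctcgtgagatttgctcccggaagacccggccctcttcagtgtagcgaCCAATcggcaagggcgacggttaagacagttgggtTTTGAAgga
Kif11: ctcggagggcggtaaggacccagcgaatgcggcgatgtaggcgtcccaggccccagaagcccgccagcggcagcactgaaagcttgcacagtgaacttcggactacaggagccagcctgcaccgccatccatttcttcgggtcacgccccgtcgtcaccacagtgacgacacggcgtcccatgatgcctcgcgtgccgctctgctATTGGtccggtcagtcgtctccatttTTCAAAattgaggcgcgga
Ccnb2: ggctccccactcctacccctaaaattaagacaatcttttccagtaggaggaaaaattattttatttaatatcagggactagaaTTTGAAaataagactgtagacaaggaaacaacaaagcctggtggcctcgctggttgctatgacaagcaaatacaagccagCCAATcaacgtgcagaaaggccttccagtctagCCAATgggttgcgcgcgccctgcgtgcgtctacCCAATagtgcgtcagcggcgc
Cdk1: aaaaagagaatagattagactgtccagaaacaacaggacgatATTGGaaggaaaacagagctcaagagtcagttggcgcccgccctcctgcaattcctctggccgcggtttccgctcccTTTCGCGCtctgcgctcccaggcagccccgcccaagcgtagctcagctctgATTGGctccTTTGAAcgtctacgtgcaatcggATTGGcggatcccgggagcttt

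In Mcm6 the first long run of capitals holds 2 overlapping E2F matches on opposite strands, and the later one is the third match. The 13 windows of S phase members belonged to 11 genes, with more than 1 for Mcm7 and Uhrf1, and the 15 mitotic windows to 15 genes. An E2F site was present in 6 of 13 S phase windows (46.2%, in 6 of the 11 genes). It was present in 1 of 15 windows of mitotic members (6.67%, that of Cdk1), against 2.26% of all 32851 promoter windows. A CHR was present in 12 of 15 mitotic windows (80%) and in 2 of 13 S phase windows (15.4%), against 19.2% of all windows. Those 12 mitotic windows also held a CCAAT box, a combination found in 7.52% of all windows. Longer lists of other replication and other mitotic genes, which share no gene with the members, divided in the same way. Of 36 windows of other replication genes, 33.3% held an E2F site and 19.4% a CHR, and of 50 windows of other mitotic genes, 8% held an E2F site and 74% a CHR. A match describes letters only and is no evidence that a factor binds there.

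Gsk3b mRNA itself was at 170.5 and 157 CPM in the libraries labelled IEC+/+ and at 152.5 and 149 CPM in those labelled IEC-/- (log2 fold change -0.12 with an SE of 0.12, and adjusted p = 0.68 by the edgeR quasi-likelihood test). CPM are counts relative to the TMM-scaled library size. A total over the whole gene and all cells of the tissue does not check a deletion in the epithelium whose exons are not stated, so IEC+/+ and IEC-/- stand below for the labels. The libraries were of similar depth, 25472503 to 27218515 counts. The counting error of a member was 1.06% to 5.37% of its count. Epcam, an epithelial marker, was at 1045 to 1444 CPM in the 4 libraries. A sum over 12 general epithelial markers, given below, was lower in both IEC-/- libraries. Markers of fibroblasts, endothelium, T cells and macrophages were counted in every library too, so the tissue was a mixture. In such bulk tissue, fewer cycling cells and less of an mRNA per cell cannot be told apart.

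The members did not separate the libraries labelled IEC-/- from those labelled IEC+/+. By the edgeR quasi-likelihood test 0 of 32 members changed at an adjusted p under 0.05, against 0.884% of the 16637 genes tested. At an unadjusted p under 0.05 there was 1 member, Ccne2, with the lower mean in IEC-/-, against 16.6% of all genes in either direction and 9.12% with the lower mean. DESeq2, limma-voom and the exact test of edgeR also called 0 of 32, while they called 8%, 0.469% and 5.3% of all genes. So did the quasi-likelihood test with DESeq2 size factors (0.86% of all genes called), library totals (0.499%), no filter on low counts (1.82%) or the replicate number as a block (1.27%). Without IEC-/- replicate 1 or 2 it called 0 members and 4.24% or 3.32% of all genes, and without either IEC+/+ library 0 members and 0% of all genes. The adjusted p-values ran from 0.28 to 0.99. The median log2 fold change, IEC-/- over IEC+/+, was -0.054 over the members and 0.011 over all genes tested.

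The groups did not overlap for 5 members, each lower in both IEC-/- libraries than in both IEC+/+ libraries. They were Pcna, Ccne1, Ccne2, Rrm2 and Birc5. Among all genes 48% did not overlap, 24.1% lower in this way and 24% higher, so the members' share was no larger than the background. Of the 95% intervals, each computed for its own gene, 31 held an equal level. The ratio of IEC-/- to IEC+/+ had an interval within 2-fold either way for all 32 members, and the outermost limits were 0.525 (Ccne2) and 1.69 (Foxm1). Differentiated colonocyte genes, tested in the same fit, had a lower mean in IEC-/- for 14 of 14 (48.5% of all genes). Of these, 7 were called (0.884% of all genes in either direction), and the median log2 fold change was -3.60. This list was chosen with earlier results of these data known. Calls at changes of that size do not show how small a change in the members would be called.

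**Figure D1:**
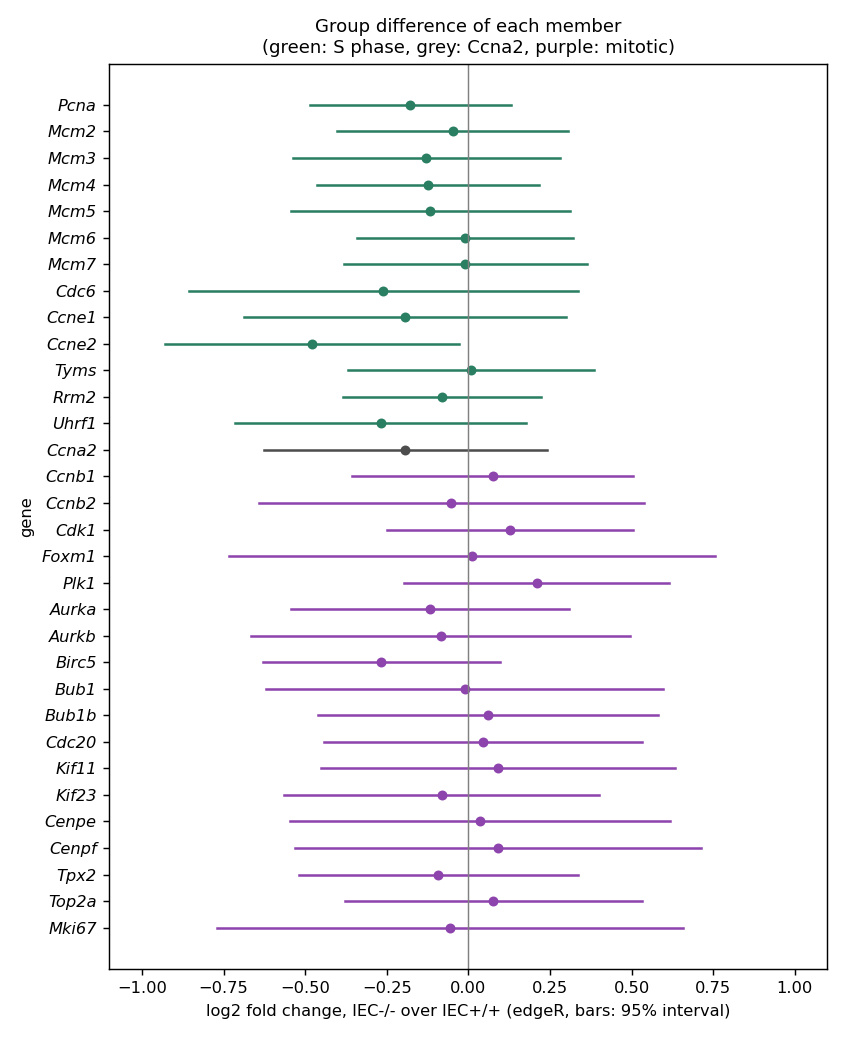
Log2 fold change of each of the 32 members, IEC-/- over IEC+/+ (horizontal axis), with its 95% interval from the edgeR quasi-likelihood fit; S phase members are green, Ccna2 grey and mitotic members purple. The interval of Ccne2 is the only one of the 32 that does not reach 0, and every interval lies between -1 and 1.

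Among the S phase members, Mcm2 to Mcm7 encode the 6 subunits of the ring-shaped replicative helicase. Mcm5 was at 53.3 and 71.0 CPM in IEC+/+ replicates 1 and 2, and at 60.2 and 54.3 CPM in IEC-/- replicates 1 and 2. Mcm3 was at 52.7 and 69.7 CPM in IEC+/+ and at 57.2 and 54.7 CPM in IEC-/-. In both genes IEC+/+ replicate 2 was the high library, the other 3 lay close together, and the groups overlapped. The log2 fold change was -0.12 for Mcm5 (SE 0.17, edgeR quasi-likelihood adjusted p = 0.80) and -0.13 for Mcm3 (SE 0.16, 0.76). Mcm2, Mcm4, Mcm6 and Mcm7 had log2 fold changes between -0.13 and -0.010 and were highest in the same library. The 6 subunits differed in the same direction between the IEC+/+ libraries, but not between the IEC-/- libraries. On the log2 scale, relative to each gene's mean over the 4 libraries, they lay between -0.15 and -0.075 in IEC+/+ replicate 1 and between 0.13 and 0.26 in IEC+/+ replicate 2. In IEC-/- they lay between -0.070 and 0.023 in replicate 1 and between -0.13 and 0.066 in replicate 2, where Mcm5 was lower in replicate 2 and Mcm7 higher, both beyond counting error. By annotation (GENCODE M21), exons of Mcm7 share 321 bases with Ap4m1 and 64 bases with Cops6 on the opposite strand. The use of strand in counting was not given, so reads of these genes cannot be told apart there.

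The remaining S phase members load, time or feed replication. Cdc6, which loads the helicase onto origins, was at 15.4 and 20.6 CPM in IEC+/+ and at 16.5 and 13.5 CPM in IEC-/- (a log2 fold change of -0.26, SE 0.24). Uhrf1, which passes DNA methylation on to the new strand, was at 63.9 and 88.5 CPM against 62.3 and 64.2 CPM (-0.27, SE 0.18). In both, IEC+/+ replicate 2 stood above the rest and the groups overlapped. Tyms, which makes thymidylate, was at 47.4 and 59.4 CPM against 55.8 and 51.7 CPM (0.0075, SE 0.15). Rrm2, a subunit of ribonucleotide reductase, was at 43.2 and 44.3 CPM against 39.5 and 43.2 CPM (-0.082, SE 0.12). Tyms showed IEC+/+ replicate 1 as its low library, and Rrm2 was nearly level. Pcna, the sliding clamp of the replication fork, was at 174 and 182 CPM against 166 and 148 CPM (-0.18, SE 0.12). The adjusted p-values of these 5 genes lay between 0.52 and 0.99 by edgeR.

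The E-type cyclins activate CDK2 at the start of S phase. Ccne2 (chromosome 4, 11190433 to 11204779, GRCm38) was at 27.2 and 30.1 CPM in IEC+/+ and at 22.7 and 18.5 CPM in IEC-/-. Both IEC-/- libraries were below both IEC+/+ libraries, and the IEC-/- libraries were also the farther apart. The log2 fold change was -0.48 (SE 0.18), the ratio was 0.718 with a 95% interval of 0.525 to 0.981, and the edgeR quasi-likelihood adjusted p was 0.28. Exons of Ccne2 share 609 bases with Ints8, an Integrator subunit gene on the opposite strand. Ints8 had the same order of libraries, at 56.9 and 69.9 CPM in IEC+/+ and at 54.1 and 40.4 CPM in IEC-/-, a log2 fold change of -0.43. Without strand, reads in the shared bases cannot be told apart, and their part in the Ccne2 value was not tested. Ccne1, the paralogous cyclin, was at 15.3 and 16.4 CPM against 14.4 and 13.2 CPM (-0.19, SE 0.20, adjusted p = 0.69).

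The mean was lower in IEC-/- for 12 of 13 S phase members, all but Tyms, where 48.5% of all genes had a lower mean. This count rested on IEC+/+ replicate 2. Without that library 6 of 13 were lower and the median log2 fold change was 0.013, against -0.13 with all libraries. With library totals in place of TMM scaling 8 of 13 were lower and the median was -0.018, but that scaling moved all genes alike. The median of all genes went from 0.011 to 0.12, and 5808 of the 16637 had a lower mean in place of 8066.

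**Figure D2:**
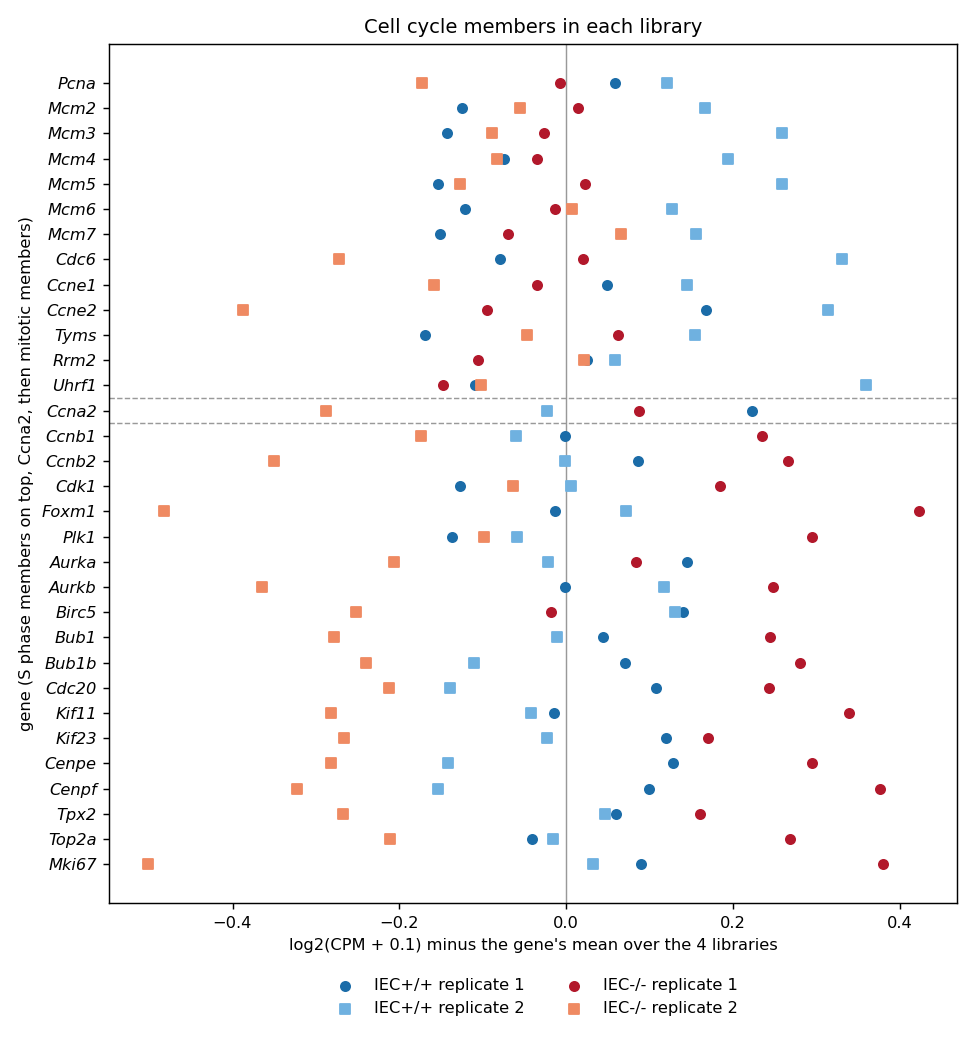
Level of each member in each library, as log2(CPM + 0.1) minus the gene's mean over the 4 libraries (horizontal axis); blue symbols are IEC+/+ and red symbols IEC-/-, circles replicate 1 and squares replicate 2. The 13 S phase members have IEC+/+ replicate 2 (light blue squares) at the right, and 16 of 18 mitotic members have IEC-/- replicate 1 (dark red circles) at the right.

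For 14 of 18 mitotic members the IEC-/- libraries lay far apart with the IEC+/+ libraries between them, and the others were Cdk1, Plk1, Aurka and Birc5. Mki67, whose product Ki-67 coats mitotic chromosomes and is the standard proliferation marker, was at 264 and 254 CPM in IEC+/+ and at 323 and 176 CPM in IEC-/-. Top2a, which untangles sister chromatids, was at 177 and 180 CPM in IEC+/+ and at 219 and 157 CPM in IEC-/-. In both genes IEC-/- replicate 1 was the highest library and IEC-/- replicate 2 the lowest. The log2 fold change was -0.056 for Mki67 (SE 0.29, edgeR quasi-likelihood adjusted p = 0.95) and 0.076 for Top2a (SE 0.18, 0.89), so the group means differed by far less than the IEC-/- libraries did.

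The cyclin B and CDK1 genes encode the kinase that starts mitosis. Ccnb1 was at 38.5 and 36.9 CPM in IEC+/+ and at 45.3 and 34.1 CPM in IEC-/- (a log2 fold change of 0.075, SE 0.17). Ccnb2 was at 28.0 and 26.3 CPM against 31.7 and 20.7 CPM (-0.052, SE 0.24). Cdk1 was at 31.6 and 34.7 CPM against 39.3 and 33.1 CPM (0.13, SE 0.15). For the cyclins both IEC-/- libraries lay outside the IEC+/+ range, on opposite sides, and for Cdk1 the low library was IEC+/+ replicate 1. Foxm1, the transcription factor of the mitotic wave, had the largest difference between the IEC-/- libraries of any member. It was at 36.1 and 38.3 CPM in IEC+/+ and at 48.9 and 26.1 CPM in IEC-/- (0.011, SE 0.30). Ccna2 was at 101 and 85.0 CPM against 91.8 and 70.8 CPM (-0.19, SE 0.17), lowest in IEC-/- replicate 2 as the mitotic members were but highest in IEC+/+ replicate 1. Exons of Ccna2 share 510 bases with Exosc9 on the opposite strand, which was at 36.9 to 42.5 CPM.

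Most of the mitotic kinase and checkpoint genes followed the same order. Plk1, which drives centrosome maturation and mitotic exit steps, was at 61.9 and 65.4 CPM in IEC+/+ and at 83.5 and 63.6 CPM in IEC-/-, the member with the highest log2 fold change (0.21, SE 0.16, edgeR quasi-likelihood adjusted p = 0.59). Aurkb, the kinase of the chromosomal passenger complex, was at 28.8 and 31.2 CPM against 34.2 and 22.3 CPM (-0.085, SE 0.23). Bub1b, which encodes the checkpoint protein BUBR1, was at 35.0 and 30.8 CPM against 40.5 and 28.2 CPM (0.061, SE 0.21). In Aurkb and Bub1b the IEC-/- libraries again lay on either side of the IEC+/+ libraries, while in Plk1 only replicate 1 stood apart. Bub1, its kinase partner in the checkpoint, had a log2 fold change of -0.011 and Cdc20, which the checkpoint restrains and which activates the anaphase-promoting complex, 0.044. Aurka, the centrosomal kinase, was at 31.9 and 28.4 CPM against 30.5 and 24.97 CPM (-0.12, SE 0.17). Birc5, which encodes survivin of the passenger complex, was at 36.1 and 35.9 CPM against 32.3 and 27.5 CPM (-0.27, SE 0.15, adjusted p = 0.44). Aurka and Birc5 were the mitotic members that were highest in IEC+/+ replicate 1, and Birc5 the only one whose groups did not overlap.

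Spindle and kinetochore genes showed the same spread. Kif11, the motor that pushes spindle poles apart, was at 50.6 and 49.6 CPM in IEC+/+ and at 64.7 and 42.0 CPM in IEC-/- (a log2 fold change of 0.091, SE 0.22). Cenpf, a kinetochore protein gene, was at 50.4 and 42.3 CPM against 61.1 and 37.6 CPM (0.092, SE 0.25). Cenpe, the kinesin that brings chromosomes to the metaphase plate, was at 33.5 and 27.7 CPM against 37.6 and 25.2 CPM (0.036, SE 0.23). In each, IEC-/- replicate 1 was highest and IEC-/- replicate 2 lowest. Kif23, a central spindle motor needed for cytokinesis, and Tpx2, which activates Aurora A on the spindle, had the same order, with log2 fold changes of -0.082 and -0.092. The adjusted p-values of the 18 mitotic members lay between 0.44 and 0.99 by edgeR.

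The difference between the IEC-/- libraries was larger than counting error for every mitotic member. The ratio of replicate 1 to replicate 2 ran from 1.18 (Birc5) to 1.88 (Foxm1), and the exact (Clopper-Pearson) 95% interval lay above 1 for 18 of 18. By direction alone, 18 of 18 were higher in replicate 1 than in replicate 2, against 49.7% of all genes. That share is no background for the intervals. For Mki67 the ratio was 1.84 with an interval of 1.78 to 1.91. These intervals cover counting error only, and reads copied by PCR are not independent molecules. The share of all genes with such an interval was not counted, in either group. The interval counts are therefore not shown to be particular to the members. Over all genes, libraries of a group also differed far beyond counting error (chi-square per degree of freedom 33.8 in IEC+/+ and 66.6 in IEC-/-). Of the S phase members, 5 of 13 had an interval above 1, 2 (Mcm7 and Rrm2) below 1, and 6 held 1. In the IEC+/+ libraries the S phase members differed instead. The ratio of replicate 2 to replicate 1 ran from 1.02 (Rrm2) to 1.39 (Uhrf1), with an interval above 1 for 10 of 13. By direction alone, 13 of 13 were higher in replicate 2, against 48.6% of all genes. For the mitotic members the ratio of replicate 2 to replicate 1 ran from 0.829 (Cenpe) to 1.097 (Cdk1). Of their intervals, 0 lay above 1 and 7 below. How the same contrasts would vary between further samples was not measured.

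**Figure D3:**
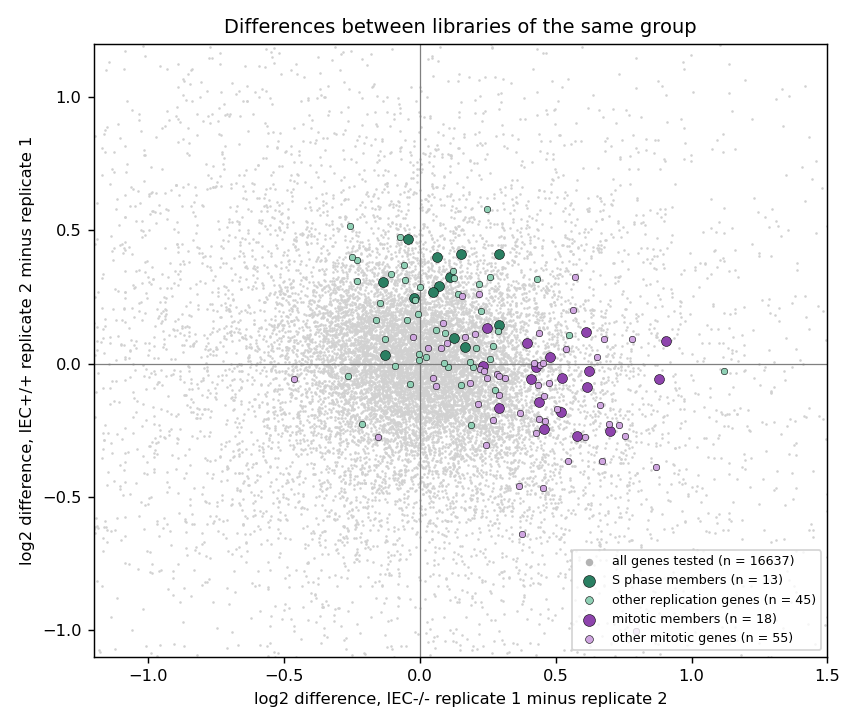
Log2 difference between the IEC-/- libraries (replicate 1 minus replicate 2, horizontal axis) and between the IEC+/+ libraries (replicate 2 minus replicate 1, vertical axis), on log2(CPM + 0.1), for S phase and mitotic members, the longer lists, and all 16637 genes tested in grey. The 18 mitotic members lie to the right of 0 (0.23 to 0.91) and the 13 S phase members above 0 (0.034 to 0.47); 1581 genes lie outside the axes, among the listed genes only Psrc1.

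Counted by library, the 2 roles thus differed in where they were high. The S phase members were highest in IEC+/+ replicate 2 for 13 of 13, against 20.7% of all genes. The mitotic members were highest in IEC-/- replicate 1 for 16 of 18 (25.5% of all genes) and lowest in IEC-/- replicate 2 for 16 of 18 (26.7%). Both held for 14 of 18, against 7.38% of all genes. This order was noticed in the data, so the counts are a description. The longer lists showed it too, less completely. Of 45 other replication genes 26 were highest in IEC+/+ replicate 2, and of 55 other mitotic genes 33 were highest in IEC-/- replicate 1, 40 were lowest in IEC-/- replicate 2, and 25 were both.

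Setting S phase against mitotic members within each library removes what they share. The median of the S phase members, relative to each gene's mean, was -0.11 in IEC+/+ replicate 1, 0.17 in IEC+/+ replicate 2, -0.027 in IEC-/- replicate 1 and -0.089 in IEC-/- replicate 2 on the log2 scale. The median of the mitotic members was 0.065, -0.019, 0.26 and -0.27 in the same order of libraries. S phase minus mitotic was therefore -0.17 and 0.18 in IEC+/+ and -0.28 and 0.18 in IEC-/-. The libraries numbered 1 leaned to mitotic genes and those numbered 2 to S phase genes in both groups, while the group means were 0.0050 and -0.053. The difference of group means, -0.058, was smaller than the spread between libraries of a group (SD 0.29). With 2 libraries against 2 an exact two-sided permutation test cannot give a p below 0.33, and no test was made. The other replication genes minus the other mitotic genes gave -0.090 and 0.16 in IEC+/+ and -0.14 and 0.11 in IEC-/-, with the same signs. The labels do not say that a replicate number marks anything shared between the groups. Without single libraries the difference of group means ran from -0.33 (without IEC-/- replicate 2) to 0.16 (without IEC-/- replicate 1), so its sign rested on which library was kept.

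**Figure D4:**
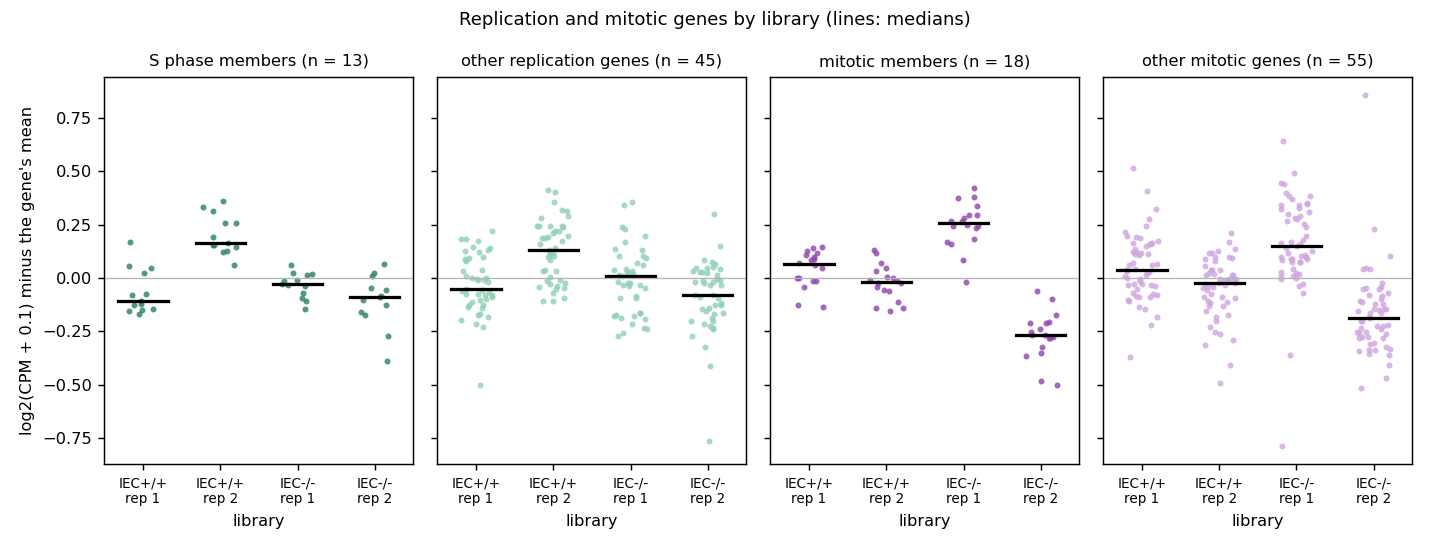
Levels of the S phase members, other replication genes, mitotic members and other mitotic genes in each library, as log2(CPM + 0.1) minus the gene's mean over the 4 libraries; each point is a gene and each line the median. The S phase median is highest in IEC+/+ replicate 2 (0.17), and the mitotic median runs from 0.26 in IEC-/- replicate 1 to -0.27 in IEC-/- replicate 2.

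The members also differed in abundance. Per kilobase of exon, averaged over the 4 libraries, Pcna was the most abundant at 69.7 CPM, followed by Plk1 at 31.2, Mki67 at 25.3 and Cdc20 at 21.7 CPM. The lowest were Cenpf at 3.10 and Cdc6 at 3.16 CPM per kilobase, which is too close to order them. Pcna, Tyms, Ccnb1 and Ccnb2 have annotated pseudogenes that carry the gene's symbol with the ending ps. Pseudogenes under other names were not searched for, in any member. How reads were shared with pseudogenes was not stated, so the levels of these members are the less certain. Tyms-ps itself had 0 to 4 counts per library, against 1229 to 1570 for Tyms.

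Other genes of the machinery gave the same picture between the groups. By the edgeR quasi-likelihood test 0 of 45 other replication genes and 0 of 55 other mitotic genes changed (0.884% of all genes). At an unadjusted p under 0.05 there were 2 and 0 (16.6% of all genes). DESeq2, limma-voom and the exact test called 0 in either list. Mean levels were lower in IEC-/- for 31 of the 45 replication genes (median log2 fold change -0.14) and for 27 of the 55 mitotic genes (0.00038), against 48.5% of all genes. Without IEC+/+ replicate 2, 22 of the 45 replication genes were lower and their median was 0.0034. Of the replication genes, Mcm10, which helps activate the helicase, was at 22.2 and 27.1 CPM in IEC+/+ and at 16.8 CPM in both IEC-/- libraries (-0.55, SE 0.19, adjusted p = 0.25). Pold3, a DNA polymerase delta subunit, had -0.38 (adjusted p = 0.21), and Pole, the catalytic subunit of polymerase epsilon, had 0.51 (0.30). Pole thus had the opposite sign to most of the list, with both IEC-/- libraries above both IEC+/+ libraries. Of the mitotic genes, the smallest p-values were those of Ube2c, a ubiquitin-conjugating enzyme of the anaphase-promoting complex (-0.32), Pimreg (0.63) and Cdca8, of the passenger complex (-0.24), with adjusted p-values of 0.30 to 0.51. Psrc1, a spindle protein gene named after its values were seen, ran against its list, with 16.9 CPM in IEC-/- replicate 1 and 53.3 CPM in IEC-/- replicate 2, against 27.2 and 30.1 CPM in IEC+/+. Over the groups its adjusted p was 0.83 by edgeR. It passed the test when IEC-/- replicate 2, its high library, stood alone for IEC-/- (adjusted p = 0.046), where the spread comes from the IEC+/+ libraries only.

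Upstream of both waves, 0 of 17 G1/S drivers changed by edgeR (0.884% of all genes), with 1 at an unadjusted p under 0.05 (16.6% of all genes). By DESeq2, limma-voom and the exact test 0 were called. The median log2 fold change was -0.16. That gene was E2f2, an activating E2F, at 49.6 and 31.5 CPM in IEC+/+ and at 20.8 and 26.99 CPM in IEC-/- (-0.76, SE 0.26, adjusted p = 0.25). Cdc25a, a phosphatase that activates CDK2, and E2f7, a repressor E2F, had -0.20 and -0.44. Ccnd1, which encodes cyclin D1, a Wnt-responsive partner of CDK4 and CDK6, was named after its values were seen. It was at 439 and 431 CPM against 292 and 460 CPM, so that IEC-/- replicate 1, the library with the most mitotic mRNA, had the least cyclin D1 mRNA. The drivers had no common order in the IEC-/- libraries, since 7 of 17 were higher in replicate 1 than in replicate 2. Their median log2 difference was -0.034, and the range was -0.69 to 0.61.

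Of 19 inhibitors and pocket proteins, 0 changed by edgeR, and at an unadjusted p under 0.05 there were 1 higher and 3 lower. Over all genes, 16.6% were at an unadjusted p under 0.05 in either direction and 9.12% were lower at it. Cdkn1c, a CDK inhibitor of the CIP/KIP family, was at 48.9 and 55.7 CPM in IEC+/+ and at 89.4 and 97.1 CPM in IEC-/-. Both IEC-/- libraries were above both IEC+/+ libraries, and the libraries of a group lay close together. The log2 fold change was 0.83 (SE 0.13), with an edgeR quasi-likelihood adjusted p of 0.062 that ranged from 8.8e-05 (DESeq2) to 0.49 (without IEC+/+ replicate 1) over the alternatives. Ccng2, an atypical cyclin gene of arrested cells, was at 101 and 75.7 CPM against 53.8 and 53.3 CPM (-0.72, SE 0.17, adjusted p = 0.13). DESeq2 called both genes, Cdkn1c higher and Ccng2 lower, as did the exact test (adjusted p = 0.0022 and 0.037), and limma-voom called 0 of the list. That was 2 of 19 by DESeq2 and by the exact test, against 8% and 5.3% of all genes (0.469% by limma-voom). The count is near the background and is no result about the list. Cdkn2b, a CDK4 and CDK6 inhibitor, had -0.71 (adjusted p = 0.22).

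The inhibitors had no common order in the IEC-/- libraries, since 7 of 19 were higher in replicate 1 and 12 in replicate 2, with a median log2 difference of -0.031. Examples of either order were named after their values were seen. Wee1, a kinase that restrains CDK1, was at 35.8 and 22.99 CPM in IEC-/- replicates 1 and 2, and Cdkn1b, which encodes p27, at 59.4 and 43.5 CPM, both in the order of the mitotic members. Cdkn2a and Cdkn1a had the opposite order. Cdkn2a, the locus of p16INK4a and p19ARF, was at 22.3 and 21.2 CPM in IEC+/+ and at 20.6 and 57.7 CPM in IEC-/-. Cdkn1a, the p53 target that encodes p21, was at 310.5 and 257 CPM in IEC+/+ and at 141 and 274 CPM in IEC-/-. IEC-/- replicate 2, the library with the least mitotic mRNA, was the high one for Cdkn2a, and IEC-/- replicate 1 was the low one for Cdkn1a. Over the groups the log2 fold changes were 0.85 and -0.45 (edgeR adjusted p = 0.44 and 0.55). Against a single IEC-/- library, edgeR called Cdkn2a without replicate 1 (1.396, adjusted p = 0.013) and Cdkn1a and Cdkn2b without replicate 2 (-1.01 each, adjusted p = 0.036 and 0.049). In these fits only the IEC+/+ libraries give a spread, and the lone library is assumed to vary as they do, so the calls describe that library and not the genotype.

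Markers of other cells also differed between libraries of a group, as did heat shock and immediate-early genes, which were listed for sample handling. In IEC-/- replicates 1 and 2 the summed levels were 797 and 3194 CPM for 10 B and plasma cell markers, 101 and 374 CPM for 8 neutrophil markers and 1457 and 1087 CPM for 10 macrophage markers. For 12 general epithelial markers they were 7278 and 6812 CPM, and for 10 fibroblast markers 2507 and 2135 CPM. The library with less mitotic mRNA thus held more B cell, plasma cell and neutrophil mRNA. In IEC+/+ replicates 1 and 2, 10 heat shock genes summed to 5262 and 8360 CPM, 8 smooth muscle markers to 532 and 214 CPM, and 14 differentiated colonocyte markers to 1190 and 683 CPM. IEC+/+ replicate 2, the library with the most S phase mRNA, therefore also held the most heat shock mRNA of any library. It held less muscle and colonocyte mRNA than IEC+/+ replicate 1. Its colonocyte sum was above those of IEC-/- replicates 1 and 2 (141 and 120 CPM). Between the groups, general epithelial markers were at 11210 to 13050 CPM in IEC+/+ and at 6812 to 7278 CPM in IEC-/-. The log2 fold changes of these markers ran from -2.86 to -0.066, and Krt20 is in the differentiated colonocyte list as well. Their mean was lower in IEC-/- for 12 of 12 (48.5% of all genes). Of these, 10 were at an unadjusted p under 0.05 (9.12% of all genes were lower at it). By edgeR 2 were called (0.884% of all genes in either direction). T cell markers were at 35.8 to 42.5 CPM in IEC+/+ and 48.2 to 52.8 CPM in IEC-/-, and endothelial markers at 240.5 to 247 and 283 to 307 CPM. Macrophage markers were at 903 to 959 CPM in IEC+/+ and at 1087 to 1457 CPM in IEC-/-. By edgeR 0 of the T cell, endothelial and macrophage markers were called. The heat shock and immediate-early genes differed between the groups too, and whether handling changed them was not tested. Heat shock genes were at 3486 to 3492 CPM in IEC-/-, with the mean lower than in IEC+/+ for 10 of 10 (48.5% of all genes). Of these, 8 were at an unadjusted p under 0.05 (9.12% of all genes were lower at it) and 0 were called by edgeR. Immediate-early genes were at 1366 to 1759 CPM in IEC+/+ and at 1185 to 1215 CPM in IEC-/-. Their mean was lower for 9 of 10 (48.5% of all genes), and 0 were called. In all these lists every gene had a count in every library, except the neutrophil gene Mpo. The part of these cells and of handling in the levels of the members was not tested.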

How the data were processed

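Polyadenylated RNA, extracted with TRIzol, was sequenced as paired reads on an Illumina instrument from libraries of an NEBNext Ultra kit, per the labels' protocols. TopHat, limma, edgeR and the mm10 build appear, without roles, in the submitters' processing notes. How reads were counted, with which annotation and with what use of strand, is not given in the sources used here. Each of the 4 files deposited by the authors holds raw counts, one whole number per gene symbol. Groups and replicate numbers come from the sample titles.

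Counts of the 26214 genes (20618 with a count) were fitted with edgeR 4.0.16 in R 4.3.3, using TMM factors of 0.955 to 1.05, filterByExpr and a quasi-likelihood F-test on group alone, with Benjamini-Hochberg adjustment over all 16637 genes tested. A gene was called at an adjusted p under 0.05. The biological coefficient of variation common to all genes was 0.248, and standard errors come from the F statistic. CPM use the scaled library sizes, and log2 levels add 0.1 CPM. The procedure was tested on simulated data with known changes. That check required calls for most of the largest changes only. It does not show that changes as small as those of the members would be called. Alternatives were other scalings, no filter, DESeq2 1.42.0, limma-voom (limma 3.58.1), the exact test, each library left out, and the replicate number as a block. Exon lengths and overlaps come from GENCODE M21, coordinates and promoters from RefSeq on GRCm38, the assembly called mm10.

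The members and lists were chosen with earlier results of these data known, so lists are described by counts and medians without a test. Named were all 32 members and, in each other cell cycle list, the 3 genes with the smallest p and any called. Psrc1, Ccnd1, Wee1, Cdkn1b, Cdkn2a and Cdkn1a fall outside this rule and were named after their values were seen. Libraries of a group differed far beyond counting noise (chi-square per degree of freedom 33.8 in IEC+/+ and 66.6 in IEC-/-), so each was counted as its own sample. This check does not tell separate mice from repeat preparations of a tumour.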

Additional observations from a re-analysis of the deposited data

How the results depend on the processing

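No member was called under any of the alternatives (edgeR quasi-likelihood test with other settings, DESeq2, limma-voom and the exact test). The count of all genes called, 147, was 83 with library totals, 376 without the filter, 1265 with DESeq2, 78 with limma-voom and 882 with the exact test, and it ran from 0 (without either IEC+/+ library) to 729 (without IEC-/- replicate 1). The calls were 0.884% of all genes in the main fit, 1.82% without the filter, 8% with DESeq2 and 5.3% with the exact test. Why the counts differed was not tested. Of the inhibitors, 1 was called without the filter, 2 by DESeq2 and 2 by the exact test, and 0 to 2 with a library left out; of the other mitotic genes, 0 to 1 were called with a library left out. Library totals moved the median of other replication genes to -0.028, of G1/S drivers to -0.052 and of inhibitors to 0.036. All genes moved alike under this scaling (median 0.011 to 0.12), which by itself put these members, whose values lay near 0, on the other side of it: Mki67 (0.056), Ccnb2 (0.059), Mcm2 (0.059), Mcm6 (0.096), Mcm7 (0.096), Aurkb (0.025), Bub1 (0.10), Rrm2 (0.025), Kif23 (0.029) and Tpx2 (0.018). Foxm1 was at -0.051 by limma-voom and -0.056 with the replicate block.

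Leaving out 1 library at a time, the median log2 fold change ran from -0.25 to 0.013 for S phase members, -0.30 to 0.26 for mitotic members, -0.21 to 0.0034 for other replication genes, -0.21 to 0.14 for other mitotic genes, -0.20 to -0.0092 for G1/S drivers and -0.19 to -0.030 for inhibitors. The mitotic extremes were those without IEC-/- replicate 1 (18 of 18 lower) and without IEC-/- replicate 2 (17 of 18 higher). The log2 fold change of 24 members changed sign in this way. Its ranges were Mcm2 -0.19 to 0.10, Mcm3 -0.32 to 0.083, Mcm4 -0.26 to 0.013, Mcm5 -0.31 to 0.10, Mcm6 -0.13 to 0.12, Mcm7 -0.16 to 0.15, Tyms -0.15 to 0.18 among S phase members, and Mki67 -0.57 to 0.31, Top2a -0.19 to 0.29, Ccnb1 -0.15 to 0.26, Ccnb2 -0.40 to 0.22, Cdk1 -0.014 to 0.24, Foxm1 -0.52 to 0.39, Plk1 -0.012 to 0.39, Aurka -0.28 to 0.015, Aurkb -0.43 to 0.18, Bub1 -0.31 to 0.22, Bub1b -0.23 to 0.29, Cdc20 -0.21 to 0.25, Kif11 -0.26 to 0.36, Kif23 -0.33 to 0.12, Tpx2 -0.33 to 0.10, Cenpe -0.29 to 0.29, Cenpf -0.31 to 0.40 among mitotic members. Birc5, Ccna2, Pcna, Rrm2, Ccne1, Ccne2, Cdc6 and Uhrf1 kept a lower mean whichever library was left out.

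The difference of S phase minus mitotic medians was between -0.12 and -0.052 with means, summed levels or Ccna2 counted as mitotic. It comes from no test, so DESeq2, limma-voom, the exact test and the block give no value for it. Same-numbered libraries deviated together with r = 0.16 across 16637 genes, which are not independent replicates. With 2 pairs and no label to say what a number marks, the numbers were not taken to pair the samples. With the replicate number as a block, edgeR called 211 genes and 0 members, and the medians were -0.12 for S phase and -0.0094 for mitotic members. The counting interval of the ratio between libraries of a group held 1 for 3 of 13 S phase and 11 of 18 mitotic members in IEC+/+, and for 6 of 13 and 0 of 18 in IEC-/-. With 2 libraries per group, the comparison of genotypes was limited by the number of libraries. A fit that leaves an arm with 1 library assumes that it varies as the other arm does.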
